A study of Mus musculus with 13 samples.

Results

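The 9 genes described here are the simple keratins Krt7, Krt8, Krt18 and Krt19 and the epithelial genes Epcam, Cdh1, Cldn4, Esrp1 and Grhl2, out of 25965 genes for which RNA was measured by poly(A) RNA-seq in mouse embryonic fibroblasts. They were taken by name, and the set was selected on values of these libraries. Krt8 was chosen by its reads, which are near 0 in the control hairpin libraries without 5-aza, so every Krt8 difference from that group is given as a description with no test. The cells of the 12 hairpin libraries were primary XXist∆A/XPGK fibroblasts from E13.5 embryos, female cells in which the Xist deletion fixes the choice of the inactive X. All were transduced with a hairpin retrovirus, selected with puromycin and harvested on day 7, and the treated cultures received 5-azacytidine (5-aza) for 24 h from day 3. The 12 hairpin libraries fall into 4 groups of 3, namely control hairpin, control hairpin + 5-aza, Setdb1 hairpin and Setdb1 hairpin + 5-aza. In each group replicate 1 carried the luciferase or the shSetdb1.6 hairpin, and replicates A and B carried the non-silencing or the shSetdb1.4 hairpin. The methods place Setdb1 hairpins in cells with a gene trap in 1 copy of Setdb1 (Setdb1+/gt) and the non-silencing hairpin in Setdb1+/+ cells, but the labels give no genotype for a library, so hairpin and genotype cannot be told apart. The labels also do not say that replicates came from separate embryos or cultures, so p-values measure the spread between these libraries, which may be technical.

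Keratins are the intermediate filament proteins of epithelia. A filament needs a type I and a type II keratin in equal amounts, and in simple epithelia Krt8 (type II) pairs with Krt18 (type I), joined by Krt7 (type II) and Krt19 (type I). Cdh1 encodes E-cadherin of the adherens junction, Epcam a cell surface adhesion protein, Cldn4 a claudin of the tight junction, Esrp1 an epithelial splicing factor and Grhl2 a Grainyhead-like transcription factor that drives junction genes. Fibroblasts are mesenchymal cells and normally make little of most of these. Setdb1 is a histone H3K9 methyltransferase, and 5-aza is built into DNA and traps DNA methyltransferases, so that methylation is lost as cells divide.

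The deposited values are log2 RPM (reads scaled to the library total, on a log2 scale) and were converted back to whole reads. The hairpin libraries held 41.9 to 58.8 M reads (M, mega) by this reckoning, and 1 read was worth 0.017 to 0.0239 RPM. Setdb1 itself, the target of the hairpins, lay at 46.1 to 46.4 RPM in the control hairpin libraries, at 42.7 to 43.9 RPM with control hairpin + 5-aza, at 12.1 to 15.4 RPM with the Setdb1 hairpin and at 10.5 to 14.5 RPM with Setdb1 hairpin + 5-aza. The fibroblast markers Vim, Col1a1, Col1a2, Col3a1, Pdgfra, Pdgfrb, Thy1 and Postn summed to between 14862 and 25789 RPM in the hairpin libraries, against 30.1 to 82.8 RPM for the 9 genes together. The cultures thus carried the markers of the labelled cell type, and the defining epithelial genes Epcam, Cdh1, Esrp1 and Grhl2 were at or near 0 reads throughout. Only Krt7, Krt8, Krt18 and Krt19 reached the filter for testing (1 RPM or more in 3 or more of the 12 hairpin libraries), and Krt8 reached it through the 3 Setdb1 hairpin + 5-aza libraries alone.

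The start regions of Krt8, Krt18 and Cldn4, in which every Setdb1 hairpin + 5-aza library lay above every other hairpin library, are shown for their CpG positions, the letters that DNA methylation acts on and that are in capitals. The share of all genes that separate in this way was not counted, and F11r and Krt13, described below, did so too. Each start region runs from 250 bases before to 50 bases after the RefSeq start on GRCm38.p6. Krt8 lies at chr15:102004293-102004592 on the minus strand, Krt18 at chr15:102027966-102028265 on the plus strand and Cldn4 at chr5:134946885-134947184 on the minus strand.
Krt8: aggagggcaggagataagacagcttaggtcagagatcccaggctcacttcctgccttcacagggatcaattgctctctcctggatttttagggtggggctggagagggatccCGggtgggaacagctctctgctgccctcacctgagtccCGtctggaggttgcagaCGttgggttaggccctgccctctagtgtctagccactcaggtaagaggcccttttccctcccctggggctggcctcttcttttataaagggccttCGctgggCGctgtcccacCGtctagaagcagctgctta
Krt18: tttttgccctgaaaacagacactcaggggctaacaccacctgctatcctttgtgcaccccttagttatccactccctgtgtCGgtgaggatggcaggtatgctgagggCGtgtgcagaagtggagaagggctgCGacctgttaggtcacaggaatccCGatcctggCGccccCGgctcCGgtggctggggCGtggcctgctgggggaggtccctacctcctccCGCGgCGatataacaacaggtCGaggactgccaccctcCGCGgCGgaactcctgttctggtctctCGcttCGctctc
Cldn4: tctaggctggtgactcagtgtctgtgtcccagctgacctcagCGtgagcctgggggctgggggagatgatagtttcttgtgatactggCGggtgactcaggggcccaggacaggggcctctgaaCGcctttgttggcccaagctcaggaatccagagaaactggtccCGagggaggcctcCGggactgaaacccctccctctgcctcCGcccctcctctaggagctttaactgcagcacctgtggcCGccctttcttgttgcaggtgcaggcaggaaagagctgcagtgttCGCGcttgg
The Krt8 start region held 6 CpG and the Cldn4 region 9, against 17 for Krt18, 11 for Epcam and 21 for Krt7, with a median of 7 over 32851 regions of the same kind. The RefSeq start used for Krt7 lay 1360 bases from the start given in the deposited table, and the other 4 start at the same base. All 5 held the E-box letters CACCTG on either strand (1 match each in Krt7, Krt8 and Krt18, and 2 each in Epcam and Cldn4), a motif found in 20.2% of all start regions. None held the Grainyhead letters AACCNGTT, which were in 2.09% of all regions. Krt8 had the TATA-box letters TATAAA on both strands of 1 overlapping stretch (tttataaa), a motif in 13.6% of all regions. These are letter matches, and neither methylation nor factor binding was measured in these libraries.

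Krt8, the type II keratin of simple epithelia, went from the edge of detection to 10 or more reads in each of the other 9 libraries. It had 1 read in each of the 3 control hairpin libraries. With 5-aza the control hairpin libraries held 39, 40 and 49 reads in replicates 1, A and B (0.808, 0.861 and 0.912 RPM). The Setdb1 hairpin libraries held 10, 22 and 15 reads (0.239, 0.463 and 0.255 RPM). With both, the libraries held 102, 144 and 103 reads (1.96, 2.88 and 2.05 RPM). The 4 groups did not overlap, in the order control hairpin, Setdb1 hairpin, control hairpin + 5-aza, Setdb1 hairpin + 5-aza. Described from summed reads, control hairpin + 5-aza was 43.2-fold above control hairpin (128 against 3 reads), and Setdb1 hairpin was 15.9-fold above it (47 against 3 reads). Both ratios are uncertain, as they rest on 3 reads in the group whose low reads chose Krt8. They may be too high for that reason, and no interval is given.

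The comparisons between groups other than the control hairpin group were tested with the filter lowered to 0.1 RPM (16043 genes). Krt8 met this filter in each of the 9 libraries outside that group. The fit shares 1 estimate of the spread over all 4 groups. The SE thus also draws on the control hairpin libraries, with 1 Krt8 read in each. At 1 RPM it entered only through the 3 Setdb1 hairpin + 5-aza libraries, the high group in both comparisons, so no test at that filter is given. Among cells with 5-aza, Krt8 was higher with the Setdb1 hairpin (2.3 ± 0.509 RPM, SD, n = 3) than with the control hairpin (0.861 ± 0.0519 RPM, SD, n = 3), a log2 fold change of 1.4 (SE 0.27, limma adjusted p = 0.00463). In Setdb1 hairpin cells, 5-aza raised Krt8 from 0.319 ± 0.125 RPM (SD, n = 3) by a log2 fold change of 2.89 (SE 0.27, limma adjusted p = 5.34e-05). A limit is that 26.9% of the 50-base stretches of the Krt8 transcripts also occur in the processed pseudogene Krt8-ps, which has no row of its own in the table, and how such reads were counted is not given in the sources used here. The long noncoding RNA gene Gm36026 overlaps Krt8 on the other strand, and the library kit does not mark strand.

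Krt18, the type I partner of Krt8, was detected in every group and rose in each of the 4 comparisons. The control hairpin libraries held 2.57, 3.11 and 2.93 RPM (replicates 1, A and B), and control hairpin + 5-aza held 9.7, 7.64 and 9.55 RPM. The Setdb1 hairpin libraries held 9.66, 9.07 and 10.1 RPM, and Setdb1 hairpin + 5-aza held 18.6, 20.5 and 19.7 RPM. Either treatment alone thus brought Krt18 to the same range, where those 2 groups overlap, and every library with both lay above every other library.

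The Setdb1 hairpin raised Krt18 from 2.87 ± 0.275 to 9.6 ± 0.507 RPM without 5-aza (SD, n = 3 each), a log2 fold change of 1.74 (SE 0.10, limma adjusted p = 5.22e-07). With 5-aza it raised Krt18 from 8.96 ± 1.15 to 19.6 ± 0.935 RPM, a log2 fold change of 1.14 (SE 0.10, limma adjusted p = 1.91e-05). The response to 5-aza was a log2 fold change of 1.64 (SE 0.10, limma adjusted p = 1.67e-06) in control hairpin cells and of 1.03 (SE 0.10, limma adjusted p = 8.58e-05) in Setdb1 hairpin cells. Ranked by log2 fold change among 13134 genes, Krt18 stood 32nd, 89th, 40th and 122nd from the top in these 4 comparisons.

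On the log2 scale the response of Krt18 to 5-aza was smaller by 0.61 in Setdb1 hairpin cells than in control hairpin cells (interaction -0.61, SE 0.14). This difference had a limma p of 0.000903 before and 0.162 after adjustment over all genes, so it did not pass. Leaving out control hairpin + 5-aza replicate A alone brought it past the threshold (-0.72, limma adjusted p = 0.0239). The Krt8 interaction, -2.53 on the same scale, is a description and rests on 1 read per control library.

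**Figure D1:**
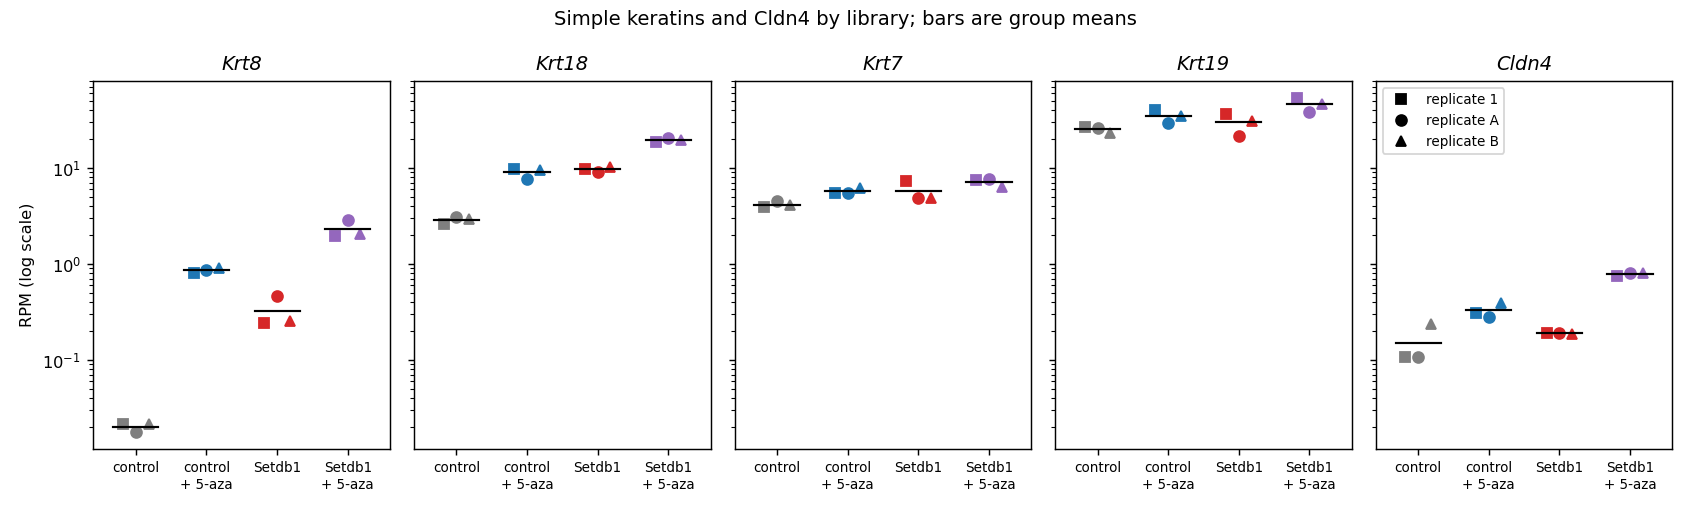
RPM (log axis) of Krt8, Krt18, Krt7, Krt19 and Cldn4 in each of the 12 hairpin libraries, with squares for replicate 1, circles for replicate A, triangles for replicate B and a bar at each group mean of 3 libraries. Krt8 runs from 0.0202 RPM on average in the control hairpin group to 2.3 RPM with Setdb1 hairpin + 5-aza, and Krt18 from 2.87 to 19.6 RPM.

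Krt7, the other type II keratin of simple epithelia, was already expressed in the control cells and moved little. It held 3.87, 4.49 and 4.08 RPM in the control hairpin libraries and 5.49, 5.49 and 6.16 RPM in control hairpin + 5-aza (replicates 1, A and B). It held 7.27, 4.86 and 4.89 RPM in the Setdb1 hairpin libraries and 7.5, 7.6 and 6.25 RPM in Setdb1 hairpin + 5-aza. The shSetdb1.6 library without 5-aza stood above both shSetdb1.4 libraries and within the range of the Setdb1 hairpin + 5-aza group. In control hairpin cells 5-aza raised Krt7 by a log2 fold change of 0.46 (SE 0.14, limma adjusted p = 0.0409), a call that was lost in 11 of the 22 alternative settings. These include the omission of any 1 library of either group of the comparison, or of Setdb1 hairpin + 5-aza replicate 1, where the value ran from 0.41 to 0.52 and the adjusted p from 0.0504 to 0.13. The other 3 comparisons did not pass, with log2 fold changes of 0.43 (adjusted p = 0.0707) and 0.31 (adjusted p = 0.139) for the Setdb1 hairpin without and with 5-aza, and 0.35 (adjusted p = 0.0865) for 5-aza in Setdb1 hairpin cells, each by limma. Without Setdb1 hairpin replicate 1, the high shSetdb1.6 library, the last became 0.54 (limma adjusted p = 0.00617), and the Setdb1 hairpin with 5-aza, at 0.31, reached an adjusted p of 0.0369. With the Setdb1 hairpin cultures paired across 5-aza (replicate block), the value of 0.35 passed (limma adjusted p = 0.0245).

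Krt19, a type I keratin with a very short tail domain, had the highest level of the 9 genes on both the RPM and the per-length scale. It held 26.5, 26.1 and 22.8 RPM in the control hairpin libraries and 40.3, 29.6 and 34.6 RPM in control hairpin + 5-aza (replicates 1, A and B). It held 36.5, 21.7 and 30.9 RPM in the Setdb1 hairpin libraries and 53.7, 37.9 and 46.2 RPM in Setdb1 hairpin + 5-aza. Replicate 1 was the highest in each of the 4 groups and replicate A the lowest in 3 of them. In Setdb1 hairpin cells 5-aza raised Krt19 from 29.7 ± 7.48 to 45.9 ± 7.88 RPM (SD, n = 3 each), a log2 fold change of 0.65 (SE 0.18, limma adjusted p = 0.0192). This call was lost without Setdb1 hairpin replicate A (0.44, limma adjusted p = 0.0691), without Setdb1 hairpin + 5-aza replicate 1 (0.53, 0.0738) or without Setdb1 hairpin + 5-aza replicate B (0.64, 0.06). The log2 fold change for 5-aza in control hairpin cells was 0.46 (adjusted p = 0.09), and those for the Setdb1 hairpin were 0.21 (adjusted p = 0.489) without and 0.40 (adjusted p = 0.137) with 5-aza, none of which passed by limma. The first passed without Setdb1 hairpin replicate A (0.46, limma adjusted p = 0.0366) and in the fit of the 2 groups alone (0.46, limma adjusted p = 0.0323). With the replicate number as a block, the first (0.46, limma adjusted p = 0.00177) and the last (0.40, limma adjusted p = 0.0177) passed. The main fit took no pairs, and same-numbered libraries did not all deviate together in these comparisons.

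Counted together at 1 RPM and leaving out Krt8, the Setdb1 hairpin raised 1 of 3 tested members without 5-aza, where 9.01% of all tested genes were called higher and 12.4% were called in either direction. With 5-aza it raised 1 of 3 (Krt18), against 14.5% of all genes called higher and 19.9% in either direction. In control hairpin cells 2 of 3 were called for 5-aza (Krt7 and Krt18, both higher), against 18.8% of all genes in either direction. In Setdb1 hairpin cells it raised 2 of 3 (Krt18 and Krt19), against 21.4% called higher and 28.9% in either direction. None of the 3 was called lower in these 4 comparisons, and 0 of 3 passed the interaction test of limma, which called 0.388% of all genes. An unadjusted p under 0.05 was found for 1 of the 3, Krt18, and a fit of the recovered reads (limma voom) called 0 of 4. The median log2 fold change of all tested genes lay between 0.020 and 0.058 in the 5 contrasts.

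**Figure D2:**
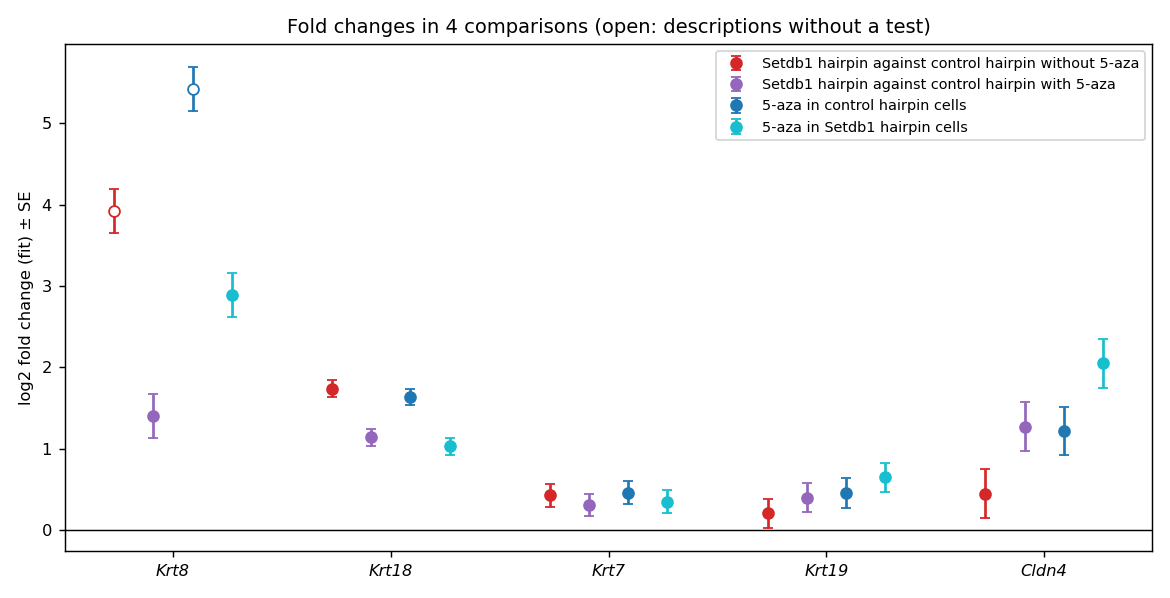
Fitted log2 fold change with its standard error for 5 genes (x axis) in 4 comparisons (colours), from all 12 hairpin libraries. Cldn4 comes from the fit with a filter of 0.1 RPM, and the open Krt8 points, 3.92 and 5.42, are descriptions against a group with 1 read per library. Krt18 lies between 1.03 and 1.74, Krt7 and Krt19 lie between 0.21 and 0.65.

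The make-up of the simple keratin mRNA, given as a description with no test, shifted towards the Krt8 and Krt18 pair. The control hairpin share of Krt8 rests on 1 read per library, the reads that chose Krt8. Levels between genes are compared here per kb of merged exon, with 7.05 kb for Krt7, 1.96 kb for Krt8, 1.44 kb for Krt18 and 1.85 kb for Krt19. The merged exons of Krt7 join several transcript forms, and its per-length level is lower for that. Krt8 made up 1.74% ± 0.294 of the summed type II level (Krt7 + Krt8) in control hairpin cells, 17.3% ± 7.56 with the Setdb1 hairpin, 35.2% ± 0.814 with control hairpin + 5-aza and 53.4% ± 4.69 with both (SD, n = 3 each). Krt18 made up 12.9% ± 1.64 of the summed type I level (Krt18 + Krt19) in control hairpin cells, 25% ± 1.3 with control hairpin + 5-aza, 30.1% ± 4.81 with the Setdb1 hairpin and 35.9% ± 5.06 with both (SD, n = 3 each). For Krt18 the lowest share in the groups treated with the Setdb1 hairpin, 5-aza or both was 23.7%, above the highest control hairpin library at 14.3%.

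The summed type I level exceeded the summed type II level in every library. The ratio of type I to type II per kb was 24.3 to 28.8 in control hairpin, 17.4 to 23.9 in control hairpin + 5-aza, 19.4 to 28.7 in Setdb1 hairpin and 13.6 to 20.3 in Setdb1 hairpin + 5-aza. Krt18 stood 12.1- to 16.4-fold above Krt8 per kb in control hairpin + 5-aza, 26.7- to 55.2-fold in Setdb1 hairpin and 9.7- to 13.1-fold in Setdb1 hairpin + 5-aza. The sum of all 4 keratins rose from 16.2 ± 1.1 RPM per kb in control hairpin to 40.6 ± 3.35 RPM per kb in Setdb1 hairpin + 5-aza (SD, n = 3 each). In bulk RNA, more cells that carry these transcripts and more transcript per cell cannot be told apart.

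**Figure D3:**
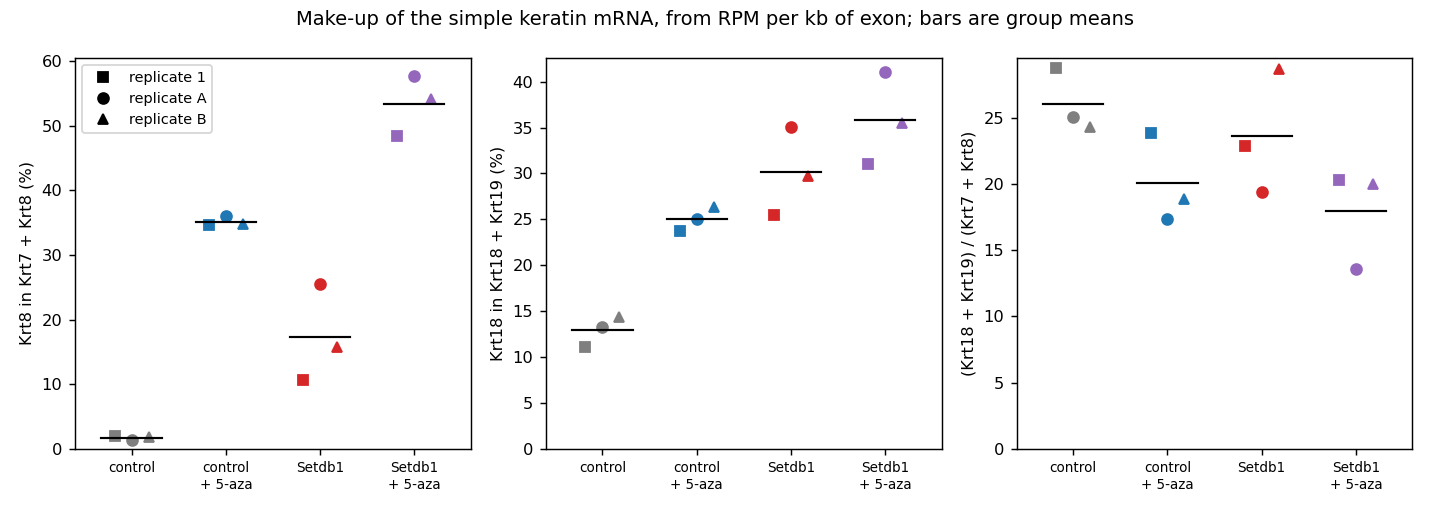
Share of Krt8 in Krt7 + Krt8, share of Krt18 in Krt18 + Krt19, and the ratio of the type I sum to the type II sum, each from RPM per kb of exon in the 12 hairpin libraries (symbols by replicate, bars at group means). The share of Krt8 runs from 1.4% to 57.7%, and the ratio in control hairpin lies above both groups with 5-aza and overlaps that of Setdb1 hairpin. The Krt8 shares in control hairpin rest on 1 read per library and are a description.

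Cldn4, the claudin, was detected at a low level in every library. It had 5, 6 and 11 reads in the control hairpin libraries and 15, 13 and 21 in control hairpin + 5-aza (replicates 1, A and B). It had 8, 9 and 11 reads in the Setdb1 hairpin libraries and 39, 40 and 40 in Setdb1 hairpin + 5-aza. The last group stood above all others, and the 2 groups without 5-aza overlapped. Cldn4 did not reach 1 RPM in any hairpin library, so it was tested only with the filter lowered to 0.1 RPM, as for Krt8. There it was higher with 5-aza in control hairpin cells (0.327 ± 0.0573 against 0.15 ± 0.0757 RPM, SD, n = 3 each, log2 fold change 1.22, SE 0.30, limma adjusted p = 0.016) and in Setdb1 hairpin cells (0.781 ± 0.0291 against 0.189 ± 0.00195 RPM, log2 fold change 2.05, SE 0.30, limma adjusted p = 0.000788). The Setdb1 hairpin raised it with 5-aza (log2 fold change 1.27, SE 0.30, limma adjusted p = 0.0127), while without 5-aza the value was 0.45 (SE 0.30, limma adjusted p = 0.389). With this filter 7.9% of all genes were called higher for the Setdb1 hairpin without 5-aza, 12.4% with 5-aza, 12.1% for 5-aza in control hairpin cells and 18.7% for 5-aza in Setdb1 hairpin cells. The Cldn4 interaction was 0.82 (SE 0.42, limma adjusted p = 0.791, with 0.337% of all genes called), opposite in sign to that of Krt18.

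Cdh1, which encodes E-cadherin, had 0 to 4 reads in every hairpin library. It had 2, 0 and 2 reads in control hairpin, 2, 3 and 2 in control hairpin + 5-aza, 2, 2 and 3 in Setdb1 hairpin and 4, 4 and 3 in Setdb1 hairpin + 5-aza (replicates 1, A and B). The groups overlap in read number except that each library with both treatments has at least as many reads as any other. Epcam had 0, 2 and 0 reads in control hairpin, 0, 0 and 3 in control hairpin + 5-aza, 3, 2 and 7 in Setdb1 hairpin and 4, 4 and 1 in Setdb1 hairpin + 5-aza. Its reads thus lay mostly in the Setdb1 hairpin libraries, with 21 reads there and 5 in the control hairpin libraries, each counted with and without 5-aza. Both adhesion genes were close to the limit of detection in all 4 groups.

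Grhl2 had no read in any control hairpin library, 0, 3 and 1 in control hairpin + 5-aza, 0, 0 and 1 in Setdb1 hairpin and 8, 3 and 2 in Setdb1 hairpin + 5-aza (replicates 1, A and B). It had 17 reads in the 6 libraries with 5-aza and 1 in the 6 without. Esrp1 had 1 read in all, in control hairpin + 5-aza replicate A. A single library at 0 reads allows up to 3 reads, or 0.0605 RPM averaged over the control hairpin libraries. A group with 0 reads in all its libraries allows fewer per library, and these limits cover counting error only. Grhl2 and Esrp1 overlap noncoding genes (Gm16136, Gm16137 and Gm16138, and Gm26663), and with no strand information their few reads cannot be assigned to a strand.

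An exact permutation test of the RPM was run for each of the 5 members below the filter and each treatment, with labels permuted within the other treatment (10 two-sided tests, 400 arrangements, smallest possible p = 0.005). For 5-aza the exact p was 0.005 for Cldn4, 0.02 for Grhl2, 0.03 for Cdh1, 0.77 for Epcam and 1 for Esrp1. For the Setdb1 hairpin the exact p was 0.015 for Epcam, 0.02 for Cldn4, 0.04 for Cdh1, 0.2 for Grhl2 and 1 for Esrp1. These p are not adjusted, and after adjustment over the 10 tests none was under 0.05. Cldn4 for 5-aza, at the smallest possible exact p, had an adjusted p of 0.05. With 10 tests, 1 test alone at that p cannot fall under 0.05, so no conclusion is drawn from the adjusted values. The differences behind the Cdh1, Epcam and Grhl2 values are of a few reads per library, at most 0.0532 RPM between means.

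**Figure D4:**
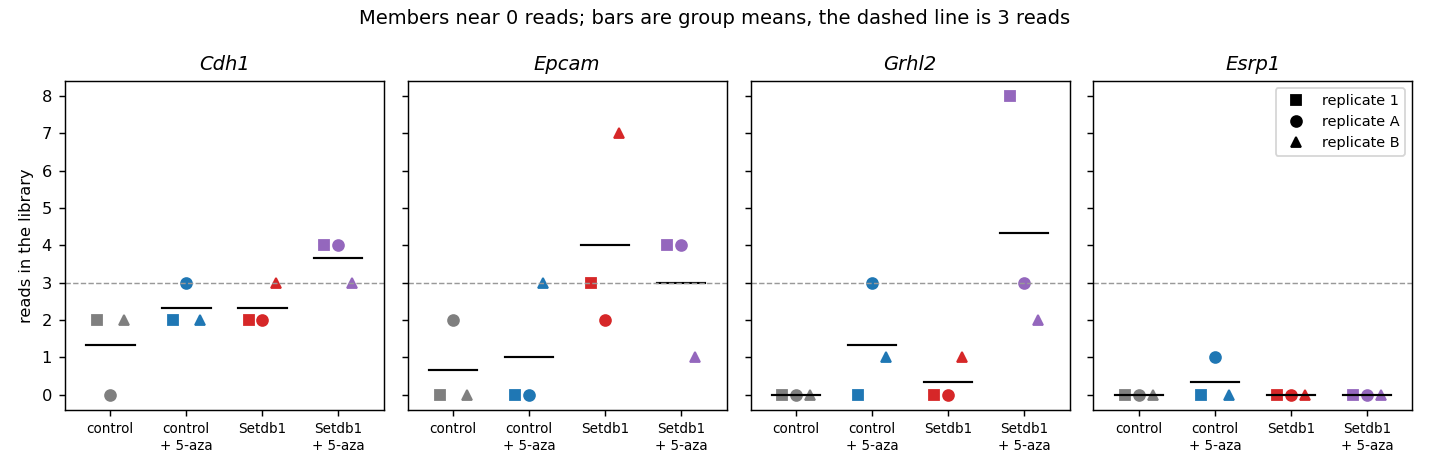
Reads of Cdh1, Epcam, Grhl2 and Esrp1 in each of the 12 hairpin libraries by group (symbols by replicate, bars at group means of 3 libraries), with a dashed line at 3 reads. The highest value is 8 reads, for Grhl2 in Setdb1 hairpin + 5-aza replicate 1, and Esrp1 has 1 read in all.

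Over the 12 libraries the log2 RPM of Krt8 and Krt18 correlated at r = 0.95, those of Krt7 and Krt18 at 0.87 and those of Krt8 and Krt19 at 0.71, as a description of libraries that share groups and depth. The Krt8 correlations include the control hairpin libraries with 1 read each, the reads that chose Krt8. The tested genes whose log2 RPM correlated best with Krt8 over the 12 libraries were Steap3 (0.988), Unc93b1 (0.983) and Anxa4 (0.980). For Krt18 they were Tex19.1 (0.986), Sh3bgrl2 (0.979) and Stac2 (0.976). Tex19.1, a germline gene known to be silenced by DNA methylation, went from no read in control hairpin through 0.319 RPM with control hairpin + 5-aza and 0.247 RPM with Setdb1 hairpin to 1.84 RPM with both. The best matches were 9130401M01Rik (0.945), Gtf2a2 (0.938) and Anubl1 (0.924) for Krt7, and Atp5j (0.976), Cox5a (0.974) and Hint1 (0.972) for Krt19. All 4 lists are the highest of 13134 genes and are given with no test.

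Krt8 and Krt18 lie side by side on chromosome 15 at one end of the type II keratin cluster, with 23.9 kb between their starts, and were compared with their neighbours. Within 200 kb of the Krt8 start the table holds 16 genes, of which 7 are other keratins on the cluster side. Those 7 (Krt1, Krt2, Krt4, Krt76, Krt77, Krt78 and Krt79) had at most 2 reads in any hairpin library. The 6 tested non-keratin genes on the other side (Eif4b, Tenc1, Spryd3, Igfbp6, Csad and Zfp740) had log2 fold changes between -0.17 and 0.19 for the Setdb1 hairpin without 5-aza and between -0.23 and 0.09 with it. For 5-aza they lay between -0.09 and 0.67 in control hairpin cells and between -0.07 and 0.57 in Setdb1 hairpin cells. Igfbp6, a binding protein of insulin-like growth factors, was the highest of them for 5-aza (0.67, SE 0.06, limma adjusted p = 1.98e-05 in control hairpin cells), below the 1.64 of Krt18.

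**Figure D5:**
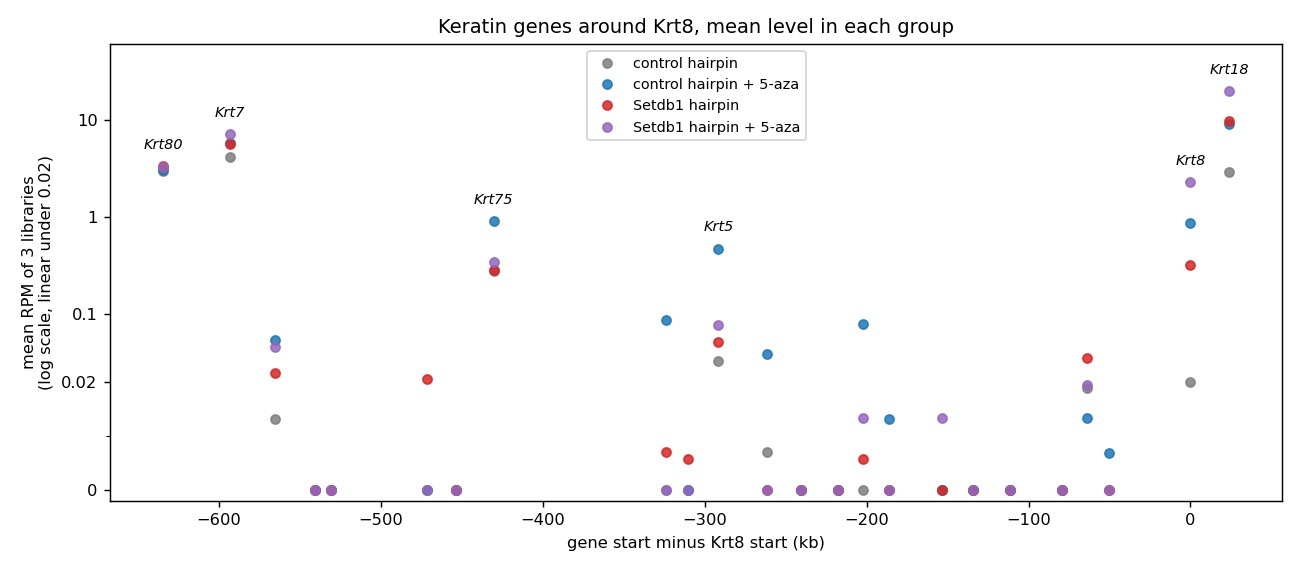
Mean RPM of 3 libraries (log axis, linear under 0.02) in each group for the keratin genes of chromosome 15, against the distance of each gene start from the Krt8 start in kb. Krt80, Krt7, Krt75, Krt5, Krt8 and Krt18 are named. Krt8 and Krt18 are highest with Setdb1 hairpin + 5-aza, and Krt75 and Krt5 with control hairpin + 5-aza.

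Of the 47 other keratin genes of the table, 17 had no read in any hairpin library and 34 had at most 3 reads in every one. The 3 that were tested, Krt10, Krt20 and Krt80, gave 1 call in the 5 contrasts, against the percentages of all genes above. Krt20, a type I keratin of the gut lining, was higher with the Setdb1 hairpin among cells with 5-aza (8.11 ± 0.299 against 6.08 ± 0.652 RPM, SD, n = 3 each, log2 fold change 0.42, SE 0.10, limma adjusted p = 0.0103). An unadjusted p under 0.05 was found for 1, 1, 0, 0 and 1 of the 3 in the 5 contrasts, taken as the Setdb1 hairpin without and with 5-aza, then 5-aza with the control and the Setdb1 hairpin, then the interaction, and voom called 0, 4, 2, 1 and 0 of 6. The medians of the 3 lay between 0.04 and 0.15, next to 0.02 to 0.06 for all genes.

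Tight junction genes, of which 5 of 14 were tested, gave 1 call in each treatment comparison except 5-aza in Setdb1 hairpin cells, which gave 1 higher and 1 lower (4 calls with the replicate block or without Setdb1 hairpin + 5-aza replicate A). The gene that rose each time was F11r, which encodes the junctional adhesion molecule JAM-A. It held 9.26 to 9.67 RPM in control hairpin, 13.7 to 15.9 RPM in control hairpin + 5-aza, 12.4 to 14 RPM in Setdb1 hairpin and 19 to 20.1 RPM in Setdb1 hairpin + 5-aza. Its log2 fold change was 0.50 (SE 0.06, limma adjusted p = 0.000488) for the Setdb1 hairpin without 5-aza and 0.62 (SE 0.06, limma adjusted p = 0.000102) when control hairpin cells received 5-aza. On the log2 scale the scaffold gene Tjp1 fell by 0.31 (SE 0.07, limma adjusted p = 0.00911) with 5-aza in Setdb1 hairpin cells. For the Setdb1 hairpin with 5-aza, the 1 tight junction call became 4 with the replicate block. That count ran from 1 to 4 with 1 library left out.

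Desmosome and plakin genes, which link keratin filaments to cell junctions, had 8 of the 12 genes in the table tested. For the Setdb1 hairpin without 5-aza 2 were higher, the plaque protein gene Pkp1 (log2 fold change 1.55, SE 0.36, limma adjusted p = 0.0175) and the desmosomal cadherin gene Dsc2 (1.12, SE 0.16, adjusted p = 0.00103), and none lower. With 5-aza 5 of 8 were higher, where 14.5% of all genes were, with a median of 0.29 beside 0.05 for all genes. The count was 3 with median centring and 2 without replicate A or B of control hairpin + 5-aza or replicate 1 or B of Setdb1 hairpin + 5-aza. The largest of these were Dsc2 (4.27 ± 0.702 against 2.07 ± 0.11 RPM, SD, n = 3 each, log2 fold change 1.03, limma adjusted p = 0.0013), Dsp (0.81, adjusted p = 0.0304) and Pkp4 (0.32, adjusted p = 0.00642). In control hairpin cells 5-aza gave 0 higher and 1 lower, Jup. This count ran from 0 to 5 with 1 library left out and from 1 to 6 under the other settings. An unadjusted limma p under 0.05 was found for 5 of the 8 in this comparison. In Setdb1 hairpin cells Perp, Dsp and Plec were higher with 5-aza and Pkp1 lower, 4 calls that became 2 without replicate 1 or A of Setdb1 hairpin or replicate 1 or B of Setdb1 hairpin + 5-aza. Pkp1 thus moved opposite to Krt18 there (-1.55, SE 0.36, limma adjusted p = 0.00956).

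Epithelial surface and trafficking genes, 7 of 15 tested, gave 0 calls for the Setdb1 hairpin without 5-aza (0 at an unadjusted limma p under 0.05 and 0 of 9 by voom) and 1 with it. That call (Cd24a, 186 ± 33.2 against 127 ± 29.9 RPM, SD, n = 3 each, log2 fold change 0.56, limma adjusted p = 0.0459) has overlapping groups and was lost under most alternatives, among them no filter, median centring, quantile normalization and the fit of the 2 groups alone. In control hairpin cells 5-aza raised Itgb4, an integrin chain of hemidesmosomes (log2 fold change 1.0, SE 0.16, limma adjusted p = 0.00145), and Spint2, a protease inhibitor gene (0.93, SE 0.15, adjusted p = 0.00183). In Setdb1 hairpin cells 4 were higher, led by Itgb4 (1.35, SE 0.16, limma adjusted p = 0.000261), and the P-cadherin gene Cdh3 was lower (-0.81, SE 0.27, adjusted p = 0.0408), with a median of 0.46 beside 0.06 for all genes. These 5 calls became 2 or 3 without replicate 1 or A of Setdb1 hairpin or replicate 1 or B of Setdb1 hairpin + 5-aza. Of the epithelial transcription and splicing regulators, the 4 that passed the filter were Klf4, Klf5, Tfap2a and Esrp2. They gave 1 call, where Tfap2a was lower with 5-aza in Setdb1 hairpin cells (-0.55, SE 0.16, limma adjusted p = 0.0254), and 0 were called there without Setdb1 hairpin replicate A, Setdb1 hairpin replicate B or Setdb1 hairpin + 5-aza replicate 1. The 4 contrasts with 0 calls had at most 1 gene with an unadjusted limma p under 0.05, and voom called 0 of the 7 genes it tested in each. For 5-aza in Setdb1 hairpin cells voom called 3 of 7. With the replicate number as a block, 2 of the 4 were called for the Setdb1 hairpin without 5-aza.

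Genes of the mesenchymal programme were tested beside them. Of all tested genes, 3.4% were called lower for the Setdb1 hairpin without 5-aza and 5.37% with it, and 5.34% were called lower for 5-aza in control and 7.51% in Setdb1 hairpin cells. All 7 regulators of the epithelial to mesenchymal transition were tested, and 3 of them fell with the Setdb1 hairpin both without and with 5-aza. On the log2 scale and without 5-aza, Zeb2 fell by 0.26 (SE 0.05, limma adjusted p = 0.00338), Prrx1 fell by 0.17 (SE 0.04, adjusted p = 0.029) and Snai2 fell by 0.12 (SE 0.03, adjusted p = 0.0401). With 5-aza Prrx1 fell by 0.23, Zeb2 fell by 0.20 and Snai2 fell by 0.16. The count of 3 without 5-aza was 1 without control hairpin replicate 1 or B or Setdb1 hairpin replicate 1 or A, and that with 5-aza was 5 without Setdb1 hairpin + 5-aza replicate A. For 5-aza in control hairpin cells limma called 0 of the 7, with 0 at an unadjusted p under 0.05 and 0 by voom. Of 12 mesenchymal structural and surface genes, 0 were called by limma for the Setdb1 hairpin without 5-aza (2 at an unadjusted p under 0.05, 0 by voom) or for 5-aza in control hairpin cells (3 at an unadjusted p under 0.05, 1 by voom). Among cells with 5-aza, 2 were called lower for the hairpin, Cdh11 (-0.57, limma adjusted p = 0.0344) and Thy1 (-0.46, limma adjusted p = 0.0277), with overlapping groups. The count was 0 in the fit of the 2 groups alone and without replicate A or B of control hairpin + 5-aza or replicate 1 or B of Setdb1 hairpin + 5-aza. In Setdb1 hairpin cells 5-aza gave 2 higher, S100a4 (0.63, limma adjusted p = 0.00861) and Vim (0.20, limma adjusted p = 0.0152). It gave 3 lower, the cadherin gene Cdh11 (-0.74, limma adjusted p = 0.00799), the collagen gene Col1a1 (-0.73, from 9299 ± 1848 to 5638 ± 1485 RPM, SD, n = 3 each, limma adjusted p = 0.0337) and the receptor gene Pdgfrb (-0.72, limma adjusted p = 0.0146). These 5 calls became 2 without Setdb1 hairpin replicate A, 3 without Setdb1 hairpin + 5-aza replicate 1 or B, and 9 with the replicate block.

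Markers of other cells that make simple keratins were read beside these values. The mesothelial list (Msln, Upk3b, Upk1b, Wt1, Lrrn4, Bnc1, Gpm6a and Muc16) summed to 5.62 to 7.18 RPM in control hairpin, 7.17 to 7.52 in control hairpin + 5-aza, 4.25 to 4.88 in Setdb1 hairpin and 7.33 to 8.28 in Setdb1 hairpin + 5-aza, with 3 of 8 reaching 1 RPM in any library and Muc16 at 1 read or none. Within it Msln, named here after its values were seen, followed the keratins, with 0.23 to 0.324 RPM in control hairpin, 1.66 to 2.29 in control hairpin + 5-aza, 0.442 to 1.05 in Setdb1 hairpin and 2.31 to 3.05 in Setdb1 hairpin + 5-aza. Wt1 did not, with 0.68 to 0.841 RPM in control hairpin and 0.29 to 0.538 in control hairpin + 5-aza. The keratinocyte list summed to 1.36 to 2.78 RPM and the trophoblast list to 0.56 to 1.87 RPM in the hairpin libraries, with the defining trophoblast genes Cdx2, Elf5 and Tpbpa at 0 reads. The part of any such cells in the keratin values was not tested.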

How the data were processed

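RNA from 13 libraries of mouse embryonic fibroblasts was prepared with the TruSeq RNA kit and sequenced as single-end reads. The authors deposited 1 table of log2 RPM values for 25965 genes on mm10. The processing notes name CASAVA 1.4, and the tool that made the table is not given in the sources used here. Genes without a read carry the value of 0.9 read. In the deposited log2 values, 100% of the linear values came out as whole reads (tolerance 0.1), which gave reads and depth. The 12 hairpin libraries were grouped by their labels, and the library with no named hairpin entered no comparison.

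The 13134 genes that reached 1 RPM in 3 or more of the 12 hairpin libraries were fitted on the deposited values with limma 3.58.1 in R 4.3.3 (moderated tests with trend, all 4 groups in 1 fit, Benjamini-Hochberg adjustment over all genes, two-sided, threshold 0.05). The script was tested on simulated data. The members and gene lists were chosen with earlier results of these data known. Named were all members, at most 3 called genes per list and contrast, the 3 genes most correlated with each tested member, and Setdb1. Alternatives were filters of none, 0.1 and 5 RPM, pseudocounts of 0.1 and 1, median centring, quantile normalization, fits of 2 groups only, replicate blocks, omission of each library, and limma voom on genes with at least 10 reads in 3 libraries, the last added after seeing the data. Same-numbered Setdb1 hairpin libraries deviated together across 5-aza (correlations of 0.413 to 0.634), and 1 control hairpin pair fell short (0.0999). The main fit used the groups only and took no pairs. Pairs entered only in the replicate blocks, as alternatives. Replicate pairs differed by more than sampling noise. Gene lengths and overlaps came from GENCODE vM21 and start regions from RefSeq (5 of 9 members matched). The result for 1 gene of a related list is not reported here.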

Additional observations from a re-analysis of the deposited data

Results flagged for a closer look

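The library treated with 5-aza and labelled with no hairpin belongs to none of the 4 groups, and 6 of the 9 genes had values there above every control hairpin library, of which Epcam (0.0981 RPM) rests on 2 reads. It is 1 library with no replicate and with fewer reads than any hairpin library (20.4 M), and 1 read was worth 0.0491 RPM. The share of all genes that lay above every control hairpin library there was not counted. Krt7 held 8.78 RPM and Krt8 3.19 RPM there, both above all 12 hairpin libraries. Krt18 held 18.4 RPM, close to the lowest Setdb1 hairpin + 5-aza library at 18.6 RPM. Cldn4 held 0.589 RPM from 12 reads, between the control hairpin + 5-aza and the Setdb1 hairpin + 5-aza libraries. Cdh1 held 0.343 RPM from 7 reads, against at most 4 reads in a hairpin library. Krt19, at 21.5 RPM, lay below every hairpin library, and Krt18 made up 52.6% of the type I level per kb. The macrophage markers Ptprc, Csf1r, Emr1, Cd68, Cd14, Fcgr1, Aif1 and C1qa summed to 70.3 RPM in this library and to 9.99 to 14 RPM in the hairpin libraries, and the mesothelial gene Msln held 7.06 RPM against at most 3.05. Their part in the keratin values was not tested.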

How the results depend on the processing

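Over all alternatives, 446 member values were recomputed. Of these, 412 kept their side of the threshold or, for Cldn4 and the Krt8 descriptions, stayed within the replicate spread. A further 14 lost and 8 gained a call, 2 reversed and 10 moved by more than the replicate spread. A change of sign in a value that was not called in either fit was not counted as a reversal. With 1 library left out, the Krt7 interaction (-0.12) ran from -0.22 to 0.08 and the Krt19 interaction (0.19) from -0.03 to 0.35. The 2 reversals counted were those of the Krt8 interaction, a description with a value of -2.53, which became 0.45 with log2(RPM + 1) and 0.09 with quantile normalization. The Krt8 value for 5-aza in control hairpin cells, 5.42, was 3.0 with log2(RPM + 0.1), 0.87 with log2(RPM + 1), 2.89 with quantile normalization and 4.85 with voom. Krt8 is left out of the following counts of members. For 5-aza in control hairpin cells 1 in place of 2 was called with median centring or quantile normalization. Leaving out each library in turn gave 1 called member for the Setdb1 hairpin without 5-aza and 1 to 3 for 5-aza in control hairpin cells. For the interaction it gave 0 to 1 (Krt18 without control hairpin + 5-aza replicate A). For the Setdb1 hairpin with 5-aza and for 5-aza in Setdb1 hairpin cells, Krt18 kept its call each time. The calls of Krt7 and Krt19 there changed as given above. Over all genes, calls for the Setdb1 hairpin without 5-aza (1630) ran from 721 to 1832, with 5-aza (2609) from 1279 to 3428, for 5-aza in control (2471) from 1260 to 2718 and in Setdb1 hairpin cells (3792) from 2191 to 4193, and for the interaction (51) from 29 to 43. A fit of only the 2 groups compared called 1548 genes for the Setdb1 hairpin with 5-aza, and a filter of 5 RPM called 19 for the interaction.

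Same-numbered libraries deviated from their group means with correlations of 0.413 to 0.634 across 5-aza in Setdb1 hairpin, 0.0999 to 0.586 in control hairpin and -0.470 to 0.686 between the hairpins. The main fit took no pairs in any comparison, and the values with a block are alternatives. With the replicate number as a block and leaving out Krt8, 1 member was called for the Setdb1 hairpin without 5-aza. The count was 3 for 5-aza in control hairpin cells and 0 for the interaction. Krt19 was called for the Setdb1 hairpin with 5-aza (0.40, limma adjusted p = 0.0177) and for 5-aza in control hairpin cells (0.46, limma adjusted p = 0.00177). Krt7 was called for 5-aza in Setdb1 hairpin cells (0.35, limma adjusted p = 0.0245). The block called 3902 genes for 5-aza in control hairpin cells and 169 for the interaction. The planned count tests edgeR and DESeq2 were not run, since the deposited values are log2. Depth limits Cdh1, Epcam, Grhl2 and Esrp1, which had few reads in every library.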

Other observations

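Among genes of the type II keratin cluster between Krt7 and Krt8, Krt75, Krt6b and Krt5 had their highest read numbers in control hairpin + 5-aza. Of the 21 keratin genes on chromosome 15 that are not members, 18 had at most 5 reads in every hairpin library. Krt83, Krt75, Krt6b, Krt5 and Krt73 had more reads in every control hairpin + 5-aza library than in any control hairpin library. These are reads not scaled to depth, with 2 or 3 against 0 or 1 for Krt83 and 2 to 5 against 0 for Krt73. The share of all genes that separate in this way was not counted. For Krt75, Krt6b and Krt5, every control hairpin + 5-aza library also exceeded every Setdb1 hairpin + 5-aza library, the reverse of Krt8 and Krt18. They were picked after their values were seen.

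Krt75, a keratin of the hair follicle, had 44, 44 and 47 reads in control hairpin + 5-aza replicates 1, A and B, 10 to 22 in control hairpin, 12 to 16 in Setdb1 hairpin and 14 to 19 in Setdb1 hairpin + 5-aza. Krt5, the type II keratin of basal cells, had 23, 28 and 18 reads in control hairpin + 5-aza and at most 9 in any other hairpin library. With the filter at 0.1 RPM, the interaction of hairpin and 5-aza did not pass for Krt75 (-1.51, SE 0.35, limma adjusted p = 0.179) or Krt5 (-3.56, SE 1.06, limma adjusted p = 0.457), so a difference between the hairpins in this response is not shown. Krt6b had 3, 5 and 5 reads in control hairpin + 5-aza and at most 1 elsewhere.

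The type I keratin Krt13, on chromosome 11, had 22, 17 and 27 reads in Setdb1 hairpin + 5-aza and 2 to 11 in the other hairpin libraries. It was also picked after its values were seen.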
